A study of Mus musculus with 12 samples.

Results

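The genes described here are 10 that astrocytes use for their resting, homeostatic work in the brain: Slc1a2, Slc1a3, Glul, Kcnj10, Aqp4, Gja1, Gjb6, Slc4a4, Aldh1l1 and S100b. The rule lists them by name and uses no measured value, though it was set with earlier results of these data known, and each was found under 1 Ensembl gene identifier among the 31208 genes of the count table. The study asked how extra lactate in the brain changes the response to an ischemic stroke, and RNA-seq was made from the brains of 12 C57BL/6 mice aged 8 weeks, in 3 groups of 4. One group was sham. In both other groups the mice had 6 h of cerebral ischemia, modelled in the study by a filament that blocks the left middle cerebral artery, after preconditioning with vehicle or with lactate. The labels name only lactate, and the study's methods name sodium D-lactate injected into a cerebral ventricle on the day before surgery, with sterile saline as the vehicle and male mice throughout. Neither source says whether the sham mice were injected, so ischemia and injection cannot be told apart in the comparisons with sham. The study mentions sham surgery in other experiments without describing it, so which steps of the surgery these sham mice shared is not known. The labels give brain as the tissue without naming a region or a side, and number 4 replicates in a group without naming animals. Each replicate is called a mouse here, and p-values measure the spread between these samples.

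Astrocytes keep the fluid around neurons stable. They take up glutamate released at synapses and turn it into glutamine, carry away potassium, move water at the endfeet that wrap blood vessels, buffer acid with bicarbonate, and pass small molecules to one another through gap junctions. When injured they become reactive and switch on genes such as Gfap, while the genes of their resting work need not move with them.

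Libraries were full-length cDNA sequenced on nanopores, and the totals ran from 6815920 counts (vehicle mouse 4) to 10677224 (vehicle mouse 1), so that 3 counts, taken as the floor of detection, were worth 0.281 to 0.440 CPM, the unit used throughout, which is a gene's count scaled to the library's total. Every member was far above that floor, with at least 27 counts in each mouse. Vehicle mouse 1 stood apart from the other libraries. Its score on the second principal component of log2 CPM was -66.9, against -10.2 to 21.8 in the other 11 mice. It was the deepest library, and it leaned most towards long transcripts: relative to each gene's mean over the 12 mice, the median log2 level of 3289 genes with a transcript of at least 5000 bases exceeded that of 2684 genes below 2000 bases by 0.28, against -0.17 to 0.21 elsewhere. Vehicle mouse 2 held 1817 CPM of Ttr, the main transcript of the choroid plexus, against 2.64 to 13.8 in the other vehicle mice. Ttr also rose with lactate against sham, from 0.815 to 2.90 CPM in sham to 7.78 to 16.2 CPM (log2 fold change 3.25, SE 0.36, adjusted p = 9.51e-05 by edgeR), in the comparison in which Gjb6 was called, and its part in that result was not tested. The call was lost in the fit of all 12 mice (adjusted p = 0.281). Results that rest on vehicle mouse 1 are given with and without it.

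The 10 genes were largely level across the groups, with 1 exception, the connexin gene Gjb6, which was called higher with lactate against sham and was not called with vehicle. In ischemia + vehicle against sham, none of the 10 passed edgeR's quasi-likelihood test at an adjusted p under 0.05, where 1.47% of the 17019 genes tested passed. At the limits stated in the study's methods, an unadjusted p under 0.05 and a fold of at least 1.5, Gjb6 alone was higher, beside 6.5% of all genes. It was also the 1 member with an unadjusted p under 0.05, beside 13.8% of all genes, and DESeq2 called it (adjusted p = 0.0355). In ischemia + lactate against sham, 1 member rose, again Gjb6, beside 8.76% of the 17262 genes tested that were called higher, and it was the 1 member higher at the study's limits, beside 11.9% of genes. None fell at an adjusted p under 0.05, by edgeR or by DESeq2, beside 3.54% of genes called lower, and 1 member, Slc4a4, was lower at an unadjusted p under 0.05, beside 11.4% of genes. With 1 of 10 called higher and 0 called lower, the members' share of calls was close to that of all genes. In ischemia + lactate against ischemia + vehicle, none of the 10 passed in edgeR or in DESeq2 at an adjusted or an unadjusted p under 0.05, beside 0.00574% of the 17419 genes tested at the adjusted threshold, which is 1 gene, 8.84% at the unadjusted one and 6.23% at the study's limits.

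The median log2 fold change over the members was 0.03, -0.03 and -0.07 in the 3 comparisons, in the order above, beside 0.00, -0.03 and -0.03 over all genes tested. The 2 comparisons with sham share the same 4 sham mice and are not independent of each other. Between sham and lactate-treated mice the precision was good enough to bound most members closely: the 95% confidence intervals of Slc1a2, Slc1a3, Glul, Gja1, Aldh1l1 and S100b all lay between a fold of 0.767 and a fold of 1.31. Since the samples are whole tissue, fewer astrocytes and less RNA per astrocyte cannot be told apart in any of these values.

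**Figure D1:**
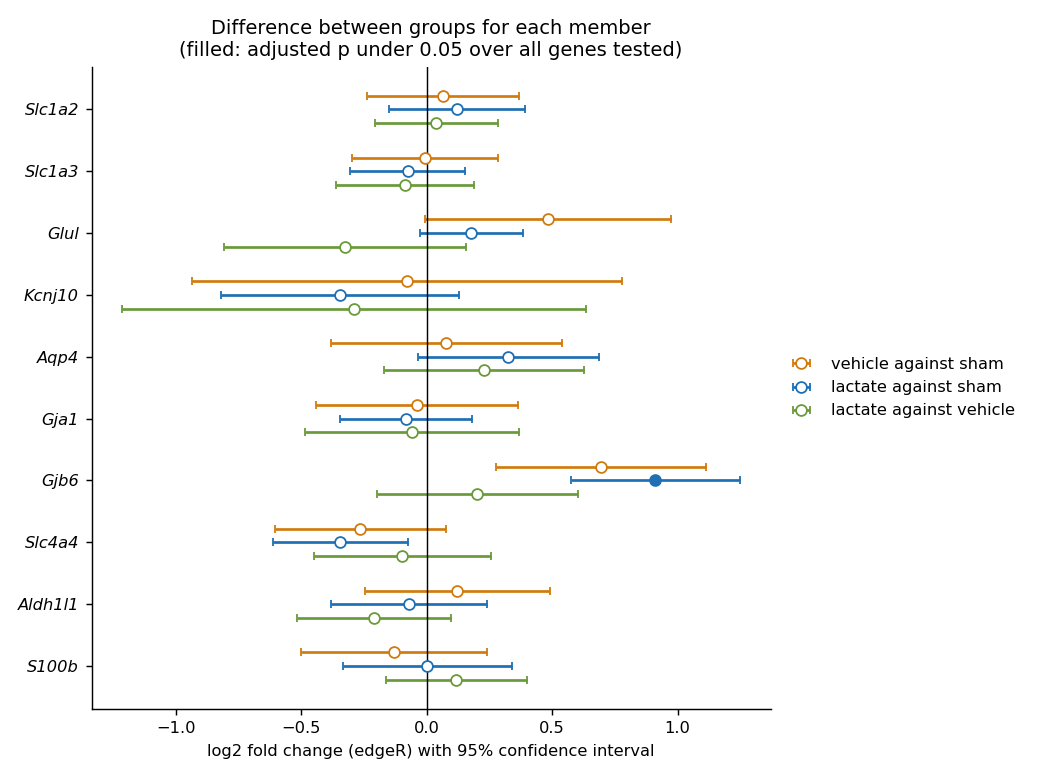
Log2 fold change of each member (points) with its 95% confidence interval (bars) from edgeR's quasi-likelihood fit, for the 3 comparisons of groups with 4 mice each; filled points have an adjusted p under 0.05 over all genes tested. Gjb6 in lactate-treated against sham mice, at 0.91, is the 1 filled point, and the intervals of Kcnj10 in the comparisons with vehicle-treated mice are the widest.

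Of the genes of glutamate uptake, Slc1a2 encodes GLT-1, the transporter that clears most synaptic glutamate in the forebrain. Its gene lies on chromosome 2 (chr2:102658659-102790784, plus strand, GRCm38). Slc1a2 measured 629.8, 384, 552 and 493 CPM in sham mice 1 to 4, 468, 553, 578 and 498 in vehicle mice 1 to 4 and 615, 554, 537 and 475 in lactate mice 1 to 4. Values of the 3 groups lay over each other, and the lowest and the highest were both sham mice. The log2 fold change was 0.07 with vehicle (95% interval -0.24 to 0.37) and 0.12 with lactate (-0.15 to 0.39), with adjusted p = 0.886 and 0.590 by edgeR. An unannotated locus that the deposited table also assigns to Slc1a2 held only 9 to 25 counts per mouse and was left separate.

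Slc1a3 encodes GLAST, the second astrocytic glutamate transporter (chr15:8634124-8710764, minus strand). In sham mice 1 to 4 Slc1a3 stood at 76.1, 61.5, 75.9 and 64.01 CPM, in vehicle mice 1 to 4 at 62.5, 63.5, 68.1 and 75.4, and in lactate mice 1 to 4 at 61.5, 63.8, 69.4 and 62.5. All 12 mice stayed within a narrow band, and the groups overlapped throughout. Fold changes on the log2 scale were -0.01 (95% interval -0.30 to 0.29), -0.08 (-0.31 to 0.15) and, for lactate against vehicle, -0.09 (-0.36 to 0.19).

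Glul encodes glutamine synthetase, which turns the glutamate taken up into glutamine (chr1:153899944-153909723, plus strand). The level of Glul was 1309, 1203, 1061 and 947 CPM in sham mice 1 to 4, 2525, 1167, 1304 and 1162 with vehicle and 1237, 1254, 1256 and 1257 with lactate, mice 1 to 4 in each case. Vehicle mouse 1 was alone far above the rest, while the lactate-treated mice lay so close together that their SD was 0.767% of their mean. With it, the log2 fold change in ischemia + vehicle was 0.48 (95% interval -0.005 to 0.97, adjusted p = 0.368 by edgeR), and without it 0.14 (SE 0.11, adjusted p = 0.577). Against vehicle, lactate-treated mice differed by -0.33 with that mouse and by 0.04 without it. Lactate-treated mice differed from sham by 0.18 (-0.03 to 0.38, adjusted p = 0.254). An annotated gene on the opposite strand, Teddm2, overlaps Glul and held at most 13 counts.

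Of 14 other genes of the glutamate and glutamine cycle, 13 could be tested. With lactate, Slc1a4, a transporter of neutral amino acids, rose against sham (log2 fold change 0.64, SE 0.17, adjusted p = 0.0278 by edgeR). Slc1a4 measured 17.7, 15.3, 19.3 and 15.5 CPM in the sham mice and 24.6, 32.8, 27.4 and 18.7 with lactate, where its lowest mouse overlapped the sham range. The call was near the threshold: Slc1a4 kept it under 11 of 17 alternatives, with adjusted p up to 0.0791. In ischemia + vehicle none of the 13 passed, at an adjusted or an unadjusted p under 0.05 by edgeR (DESeq2 gave 1 at an unadjusted p under 0.05).

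Turning to potassium and water, Kcnj10 encodes Kir4.1, the inward rectifier channel through which astrocytes take up potassium (chr1:172341210-172374085, plus strand). Kcnj10 measured 13.98, 10.6, 8.69 and 9.37 CPM in sham mice 1 to 4, 20.04, 6.22, 8.47 and 3.96 in vehicle mice 1 to 4 and 10.01, 7.19, 5.80 and 9.74 in lactate mice 1 to 4. Vehicle mice 1 and 4 were the highest and the lowest of all 12, so the spread in that group (SD 7.15 around a mean of 9.67 CPM) exceeded the differences between the group means. The log2 fold change with vehicle was -0.08 (95% interval -0.93 to 0.78, adjusted p = 0.960 by edgeR). Without vehicle mouse 1 it was -0.73 (SE 0.27, unadjusted p = 0.0194, adjusted p = 0.192). Lactate-treated mice differed from sham by -0.35 (-0.82 to 0.13, adjusted p = 0.341), and from vehicle by -0.29 with that mouse and 0.38 without it. For this gene the vehicle group leaves room for any fold between 0.523 and 1.72.

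Aqp4 encodes aquaporin 4, the water channel of the endfoot. In sham mice 1 to 4 Aqp4 stood at 19.3, 11.4, 13.9 and 17.6 CPM, in vehicle mice 1 to 4 at 16.2, 12.04, 15.8 and 19.8, and in lactate mice 1 to 4 at 18.4, 17.5, 20.4 and 19.6. The lactate-treated mice were the tightest group and lay at the upper end, yet the highest sham mouse was above 2 of them. The log2 fold change was 0.08 with vehicle (95% interval -0.38 to 0.54) and 0.33 with lactate (-0.04 to 0.69, unadjusted p = 0.0743, adjusted p = 0.237 by edgeR).

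Among 11 genes of the scaffold that holds Kcnj10 and Aqp4 in the endfoot membrane, 10 were tested. Agrn, a heparan sulfate proteoglycan of the basement membrane, fell with lactate against sham (log2 fold change -0.58, SE 0.17, adjusted p = 0.0378 by edgeR), from 36.8, 25.9, 27.03 and 20.7 to 17.6, 19.04, 16.1 and 19.5 CPM. All 4 lactate-treated mice were below the sham range, and Agrn kept its call under 7 of 17 alternatives. In ischemia + vehicle none of the 10 passed, at an adjusted or an unadjusted p under 0.05 by edgeR or by DESeq2.

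Gap junctions between astrocytes are built mainly from the connexins that Gja1 (Cx43) and Gjb6 (Cx30) encode. Both promoters are shown because the genes differed in response, as the 250 bases before the RefSeq start site (GRCm38.p6), Gjb6 from chr14:57133612-57133861 on the minus strand and Gja1 from chr10:56377050-56377299 on the plus strand, with any match to a searched motif in capitals.
Gjb6: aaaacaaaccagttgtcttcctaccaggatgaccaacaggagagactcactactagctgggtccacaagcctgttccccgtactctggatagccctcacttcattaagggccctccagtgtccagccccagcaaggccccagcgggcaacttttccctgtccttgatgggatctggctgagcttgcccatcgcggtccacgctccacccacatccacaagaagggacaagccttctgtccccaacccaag
Gja1: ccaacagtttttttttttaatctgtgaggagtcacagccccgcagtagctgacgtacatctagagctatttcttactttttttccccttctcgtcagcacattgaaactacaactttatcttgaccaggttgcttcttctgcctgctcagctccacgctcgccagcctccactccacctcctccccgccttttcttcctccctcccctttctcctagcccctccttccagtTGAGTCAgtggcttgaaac
The motifs were searched on both strands from 250 bases before to 50 bases after the start: AP-1 (TGANTCA, in 7.81% of 32851 promoters of this length), STAT (TTCNNNGAA, 8.3%), the hypoxia element core (ACGTG, 19.6%), the GC box (GGGCGG, 35.7%) and the TATA box (TATAAA, 13.6%). Gja1 held 1 AP-1 match, TGAGTCA, whose first base lies at -19 from the start, and the Gjb6 window held none of the 5. GC content was 57.3% for Gjb6 and 47.7% for Gja1, against a median of 52.7% over all promoters. Promoters of 9 of the 10 members were searched, and that of Aqp4 was left out.

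Gja1 did not move beyond the spread between mice (chr10:56377330-56402513, plus strand). The level of Gja1 was 45.6, 43.6, 45.6 and 40.8 CPM in sham mice 1 to 4, 28.2, 40.1, 43.8 and 55.02 with vehicle and 37.3, 40.00, 48.4 and 36.6 with lactate, mice 1 to 4 in each case. The vehicle group held both the lowest and the highest mouse and spanned the other groups. Its log2 fold change was -0.04 with vehicle (95% interval -0.44 to 0.36, adjusted p = 0.956 by edgeR), -0.08 with lactate (-0.35 to 0.18, adjusted p = 0.716) and -0.06 between the ischemic groups (-0.48 to 0.37).

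Gjb6 was the member with a response (chr14:57123303-57133611, minus strand). Gjb6 measured 24.9, 23.3, 22.8 and 32.7 CPM in sham mice 1 to 4, 28.6, 47.7, 43.1 and 44.9 in vehicle mice 1 to 4 and 55.3, 48.1, 49.2 and 38.5 in lactate mice 1 to 4. Each lactate-treated mouse was above each sham mouse, and so were 3 of the 4 vehicle-treated mice, while vehicle mouse 1 fell inside the sham range. Gjb6 rose in ischemia + lactate against sham, by a log2 fold change of 0.91 (SE 0.16, adjusted p = 0.00286 by edgeR), a fold of 1.88 with a 95% interval of 1.49 to 2.37. In ischemia + vehicle the log2 fold change was 0.69 (SE 0.19, unadjusted p = 0.00335, adjusted p = 0.123), a fold of 1.62 (1.21 to 2.16). Without vehicle mouse 1 it was 0.84 (SE 0.15, adjusted p = 0.0178 by edgeR). With that mouse kept, DESeq2 and limma voom also called Gjb6 (adjusted p = 0.0355 and 0.0271). The side of the threshold in that comparison thus depended on 1 library and on the test. The ischemic groups did not differ from each other by the test, with lactate at 0.20 against vehicle (-0.20 to 0.60, adjusted p = 0.774), an interval that leaves room for a lactate effect of up to 1.52-fold.

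Sham against lactate was also the 1 comparison in which any member's groups failed to overlap. Gjb6 was higher in all 4 lactate-treated mice, beside 10.4% of genes tested, and Slc4a4 was lower in all 4, beside 8.74% of genes. No member separated fully in ischemia + vehicle against sham, beside 9.03% of genes, or between the ischemic groups, beside 4.81%.

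As a within-library measure, Gjb6 counts divided by Gja1 counts were 0.546, 0.535, 0.500 and 0.801 in the sham mice, 1.01, 1.19, 0.983 and 0.816 with vehicle and 1.48, 1.20, 1.02 and 1.05 with lactate. All 8 ischemic mice, vehicle mouse 1 included, lay above every sham mouse, though vehicle mouse 4 did so only just. In vehicle mouse 1 the ratio of 1.01 came with the lowest Gja1 of the 12 mice, 28.2 CPM, and with Gjb6 inside the sham range. This ratio was formed after the values were seen and is given as a description.

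**Figure D2:**
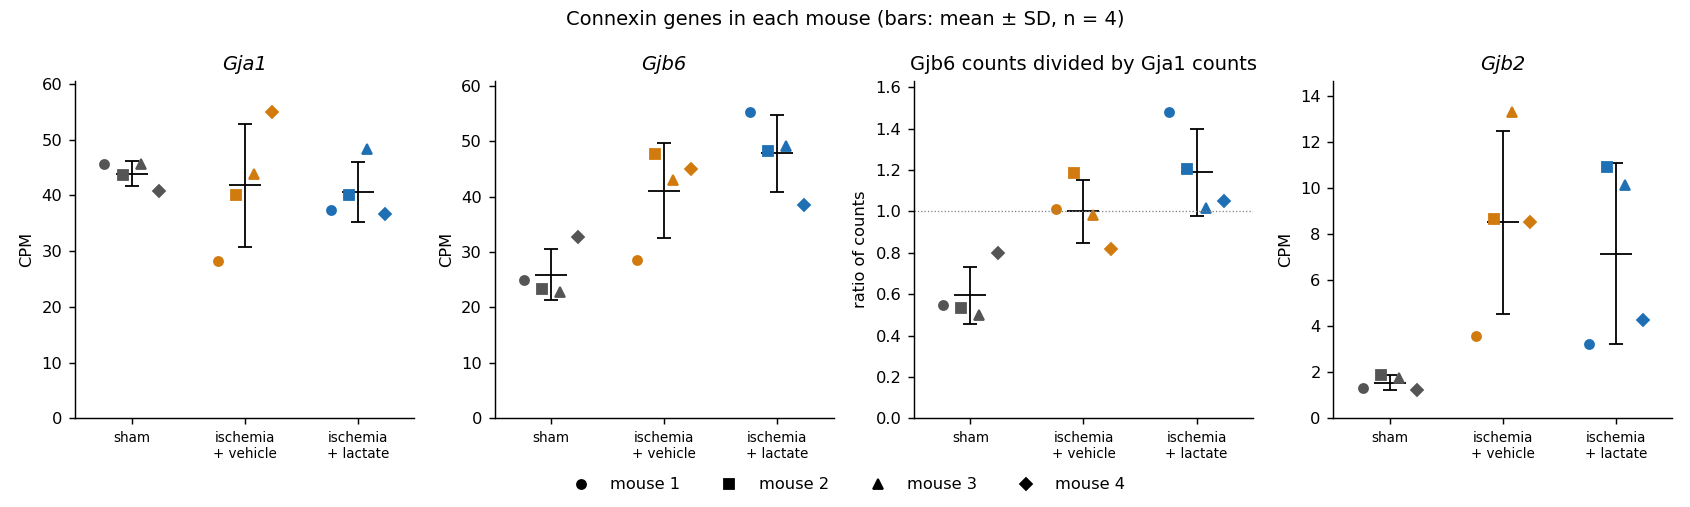
CPM of Gja1, Gjb6 and Gjb2 and the ratio of Gjb6 to Gja1 counts (vertical axes) in each of the 12 mice, by group, with the mean and SD of 4 mice as bars; symbols mark the mouse number. Gja1 spans 28.2 to 55.02 CPM with the groups overlapping, Gjb6 spans 38.5 to 55.3 CPM in lactate-treated mice, above every sham mouse, and the ratio is 0.500 to 0.801 in sham and 0.816 to 1.48 in ischemic mice.

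Of 9 other gap junction and pannexin genes with their junction partners, 8 were tested. Gjb2, which encodes Cx26 and is known from the meninges and some astrocytes, rose in both ischemic groups against sham, by a log2 fold change of 2.46 with vehicle (SE 0.38, adjusted p = 0.00519 by edgeR) and 2.21 with lactate (SE 0.40, adjusted p = 0.00391). It measured 1.32, 1.89, 1.77 and 1.23 CPM in sham, 3.56, 8.68, 13.3 and 8.51 with vehicle and 3.25, 10.9, 10.2 and 4.29 with lactate, and no ischemic mouse overlapped sham. These are low values, from 10 to 17 counts per sham mouse. Gjb2 is a neighbour of Gjb6 on the same strand (chr14:57098600-57104702), 18600 bases from it with 1 annotated protein-coding gene between them. Tjp1, which encodes the junction scaffold ZO-1, fell with lactate (-1.02, SE 0.26, adjusted p = 0.0201), from 16.2, 6.69, 13.4 and 11.5 CPM in sham to 4.33, 5.63, 7.52 and 5.33, and kept its call under 14 of 17 alternatives. Its sham and lactate mice overlapped through sham mouse 2.

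The last members serve acid balance, folate metabolism and calcium binding. Slc4a4 encodes the sodium bicarbonate cotransporter NBCe1, through which astrocytes regulate pH (chr5:88886818-89239653, plus strand). In sham mice 1 to 4 Slc4a4 stood at 42.1, 34.8, 33.95 and 36.4 CPM, in vehicle mice 1 to 4 at 35.9, 26.5, 31.1 and 25.7, and in lactate mice 1 to 4 at 27.2, 28.98, 31.6 and 25.6. Lactate-treated mice were all below sham, and vehicle-treated mice overlapped sham only through mouse 1, at 35.9 CPM. The log2 fold change with lactate was -0.34 (95% interval -0.61 to -0.08, unadjusted p = 0.0156), with an adjusted p of 0.0897 that misses the threshold. With vehicle it was -0.26 (-0.61 to 0.08, adjusted p = 0.493), and -0.37 without vehicle mouse 1 (SE 0.14, unadjusted p = 0.0213, adjusted p = 0.201). Of 12 other bicarbonate and carbonic anhydrase genes, all tested, 2 fell with lactate against sham, beside 3.54% of all genes called lower: Car14, a membrane carbonic anhydrase, by -1.19 (SE 0.23, adjusted p = 0.00611) and Car2, a cytosolic one best known from oligodendrocytes, by -0.40 (SE 0.09, adjusted p = 0.0145). Car14 measured 13.8, 11.9, 14.5 and 9.25 CPM in sham and 4.33, 4.43, 4.48 and 7.88 with lactate, with no overlap. It was called under each of 17 alternatives and Car2 under 16, the exception being the fit of all 12 mice.

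Aldh1l1 encodes a folate-metabolizing dehydrogenase widely used as a general astrocyte marker (chr6:90486427-90600203, plus strand). The level of Aldh1l1 was 44.97, 36.5, 34.1 and 27.1 CPM in sham mice 1 to 4, 41.02, 33.7, 41.7 and 34.8 with vehicle and 34.5, 33.7, 32.3 and 32.2 with lactate, mice 1 to 4 in each case. Groups overlapped, with the sham mice the most spread and the lactate-treated mice within 32.2 to 34.5 CPM. The log2 fold change was 0.12 with vehicle (95% interval -0.25 to 0.49), -0.07 with lactate (-0.38 to 0.24) and -0.21 between the ischemic groups (-0.52 to 0.10, adjusted p = 0.690 by edgeR).

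S100b encodes a calcium-binding protein of astrocytes that some oligodendrocyte-lineage cells also make (chr10:76253853-76261159, plus strand). S100b measured 164, 244, 146 and 172 CPM in sham mice 1 to 4, 160.4, 144, 189 and 156 in vehicle mice 1 to 4 and 199.9952, 152, 180.4 and 183 in lactate mice 1 to 4. Sham mouse 2 was the highest and the groups overlapped otherwise. Log2 fold changes were -0.13 with vehicle (95% interval -0.50 to 0.24) and 0.00 with lactate (-0.34 to 0.34, adjusted p = 0.994 by edgeR). Dip2a, on the opposite strand, overlaps S100b and held at most 192 counts in a mouse.

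**Figure D3:**
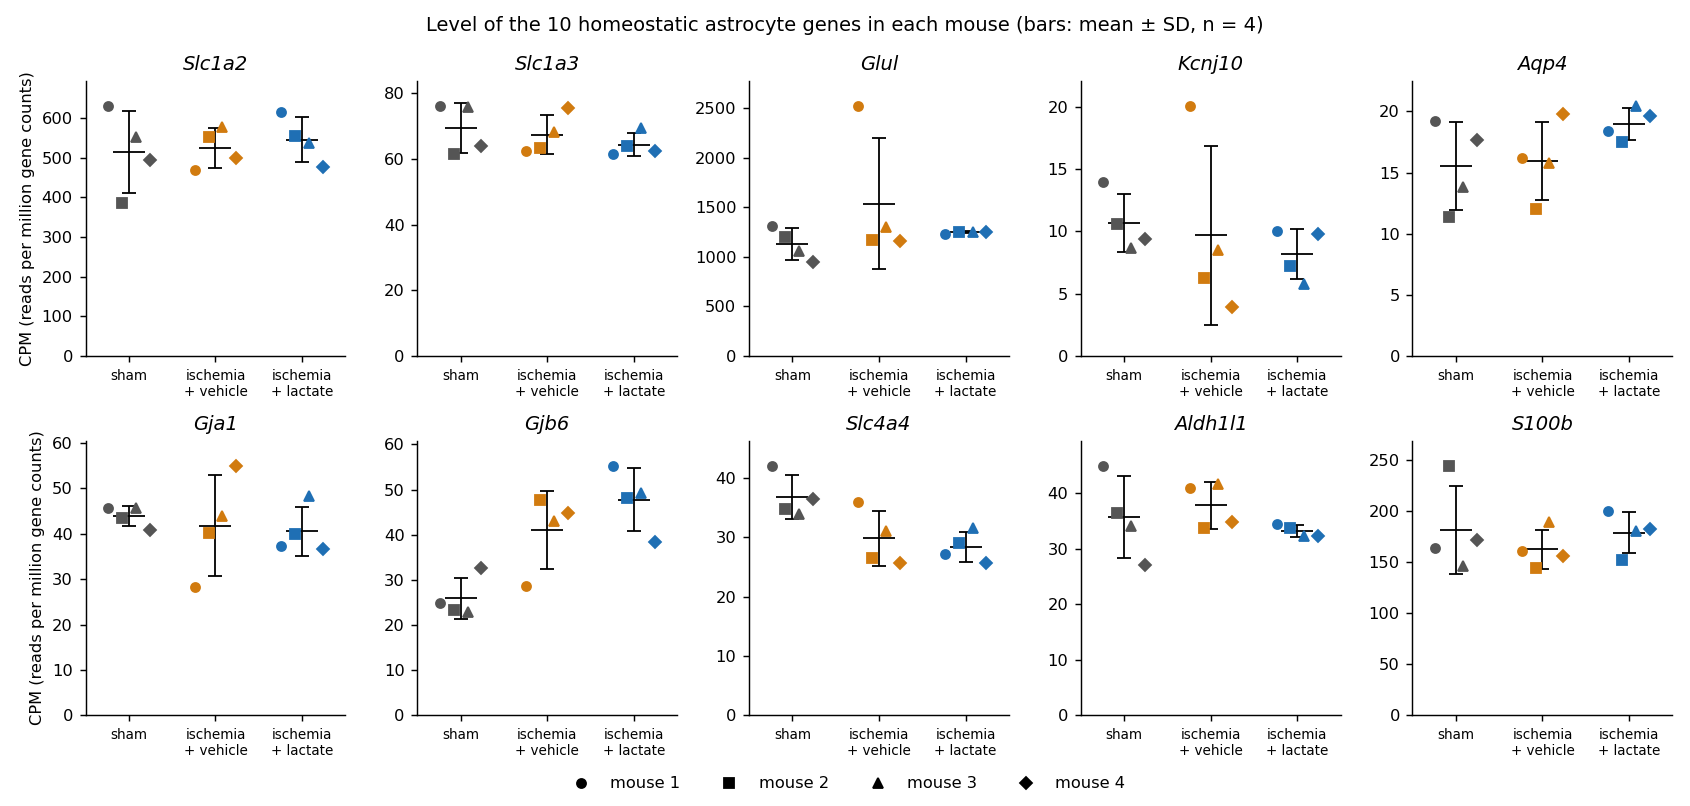
CPM (vertical axes, starting at 0) of each of the 10 members in each of the 12 mice, by group, with the mean and SD of 4 mice as bars; symbols mark the mouse number. Gjb6 is higher in both ischemic groups than in sham apart from vehicle mouse 1, and Glul and Kcnj10 each have their highest value, 2525 and 20.04 CPM, in that mouse.

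Other genes of resting astrocytes were tested beside the members. Of 28 further astrocyte genes, all tested, none was called in ischemia + vehicle by edgeR (2 were higher and 1 lower at an unadjusted p under 0.05, and DESeq2 called 1 lower), and their median log2 fold change was 0.16. With lactate against sham 3 of the 28 fell, beside 3.54% of all genes called lower, and none rose by edgeR (6 were higher at an unadjusted p under 0.05, and DESeq2 called 1 higher), with a median of 0.08. Slc13a5, a citrate transporter, fell by 1.12 on the log2 scale (SE 0.20, adjusted p = 0.00401), from 12.8, 9.92, 8.28 and 11.6 to 4.73, 3.83, 5.67 and 4.87 CPM. Slc7a10, a transporter of small neutral amino acids such as serine, fell by 0.72 (SE 0.15, adjusted p = 0.00737), from 18.6, 16.7, 19.6 and 17.8 to 12.03, 10.2, 9.49 and 11.2 CPM. In neither gene did a lactate-treated mouse reach the sham range, and both were called under each of 17 alternatives. Sox9, a transcription factor of astrocytes, fell by 0.73 (SE 0.21, adjusted p = 0.0395) and kept its call under 8 of the 17.

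Genes of reactive astrocytes moved by much more in the same libraries. Gfap, the intermediate filament protein of reactive astrocytes, measured 73.7, 54.5, 46.7 and 34.5 CPM in sham, 255, 91.7, 105 and 184 with vehicle and 248, 262, 289 and 334 with lactate. All ischemic mice were above all sham mice, and the log2 fold change was 1.64 with vehicle (SE 0.31, adjusted p = 0.0201 by edgeR) and 2.47 with lactate (SE 0.18, adjusted p = 2.01e-06). Of 13 genes known as pan-reactive, 11 were tested, and 8 rose with vehicle and 10 with lactate, with medians of 1.64 and 2.47. Lcn2, a secreted carrier of iron-binding siderophores, was nearly absent from sham, with 0, 0, 0 and 2 counts, and held 173 to 375 counts in each ischemic mouse. Timp1, an inhibitor of matrix proteases, rose by a log2 fold change of 4.20 with vehicle and 5.59 with lactate. Between the ischemic groups, 0 of the 11 pan-reactive genes were called by edgeR. With lactate against vehicle 10 were higher and 1 lower, and 5 were higher at the study's limits. There Gfap differed by 0.80 (SE 0.28, adjusted p = 0.496) and Timp1 by 1.38 (SE 0.24, adjusted p = 0.265). Among the genes known as A1, 1 of 9 rose with vehicle and 6 of 10 with lactate, and among those known as A2, 3 of 6 and 6 of 6, beside 219 of the 17019 genes tested called higher with vehicle and 8.76% with lactate. The counts with vehicle depended on single mice: leaving out each mouse in turn gave 3 to 5 pan-reactive (of 7 to 11 tested), 0 to 2 A1 (0 without sham mouse 3 and 2 without vehicle mouse 2) and 1 to 3 A2 genes, the A2 count being 1 without any 1 of the sham mice or without vehicle mouse 2 or 3. With lactate they were 7 to 10 (of 8 to 11 tested), 5 to 6 and 4 to 5, and the A2 count was 3 in the fit of all 12 mice. The study used these lists on the same mice, so their direction is not independent evidence, and other brain cells express several of them too.

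Markers of other cell types were measured beside the members. The summed level of 12 neuron markers was 6708 to 9759 CPM in sham, 6108 to 11782 with vehicle and 5818 to 9921 with lactate (lowest to highest mouse), and none of the 12 was called in any comparison by edgeR or by DESeq2, or had an unadjusted p under 0.05. The sum of 10 microglia markers was 337 to 376 CPM in sham, 289.8 to 382 with vehicle and 466 to 503 with lactate, and that of 8 endothelial markers 189 to 209, 265 to 306 and 323 to 372 CPM. Both sums were higher in every lactate-treated mouse than in every sham mouse, as Gjb6 was. Among the microglia markers, C1qb, a subunit of complement C1q, rose with vehicle against sham and Cx3cr1 and P2ry12, receptors of resting microglia, fell (log2 fold changes 0.72, -1.21 and -1.01, adjusted p = 0.0227, 0.0201 and 0.0275 by edgeR). These calls were kept under 9, 12 and 11 of 17 alternatives, and all were lost without sham mouse 1, 2 or 3 or vehicle mouse 3 or 4. With lactate against sham C1qa, C1qb and C1qc rose and P2ry12 fell. Among the endothelial markers, Slc2a1, a glucose transporter, rose with vehicle (1.33) and with lactate (1.49), and Ly6c1 and Esam rose with lactate. No marker of either list was called between the ischemic groups by edgeR, where 4 microglia and 2 endothelial markers were higher with lactate at an unadjusted p under 0.05 and DESeq2 called 2 microglia markers higher. The sum of 10 oligodendrocyte markers was 7197 to 11485, 5688 to 10699 and 9022 to 10061 CPM, and 3 of the 10, Opalin, Mog and Cnp, fell with lactate against sham, while none rose by edgeR or by DESeq2 and 2 were higher at an unadjusted p under 0.05. Opalin and Mog lost their calls in the fit of all 12 mice (adjusted p = 0.0911 and 0.0940). The part of cell mixture in the values of Gjb6 and Slc4a4 was not tested.

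The balance of long and short transcripts also differed between libraries and ran against Gjb6. It was 0.21, -0.03, 0.08 and 0.00 in the sham mice, 0.28, -0.11, -0.07 and -0.06 with vehicle and -0.17, 0.03, -0.05 and -0.03 with lactate (log2). Sham mouse 1 and vehicle mouse 1 had the highest balance, the highest Kcnj10 (longest annotated transcript 5407 bases) and the highest Glul (2792 bases). Slc4a4 (7931 bases) was the highest of its group in both, at 42.1 CPM in sham mouse 1 and 35.9 CPM in vehicle mouse 1. Slc1a2 and S100b did not follow their length in vehicle mouse 1. Slc1a2, with the longest transcript of the 10 (11595 bases), was the lowest of its group there, at 468 CPM. S100b, with the shortest (1484 bases), was the second highest, at 160.4 CPM. Gjb6, with a longest transcript of 2105 bases, tended to be high where the balance was low. The part of this balance in the difference between the groups was not tested.

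**Figure D4:**
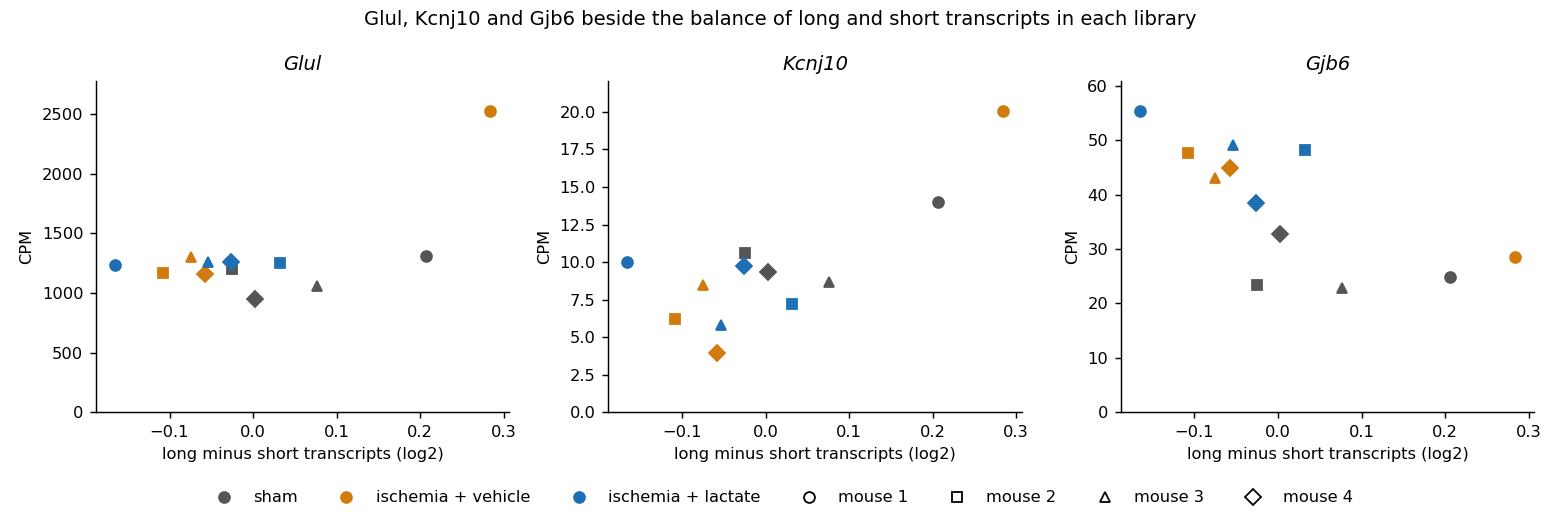
CPM of Glul, Kcnj10 and Gjb6 (vertical axes) in each of the 12 mice against the balance of long and short transcripts in its library (horizontal axes, log2), coloured by group and with symbols for the mouse number. Vehicle mouse 1, at a balance of 0.28, has 2525 CPM of Glul and 20.04 of Kcnj10, and its Gjb6, at 28.6 CPM, is the lowest of the ischemic mice.

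The members did not vary as 1 block among mice of a group. After the group means were removed from log2 CPM, Pearson's r over the 12 mice ran from -0.91 to 0.86. Glul and Kcnj10 gave 0.86, and 0.51 without vehicle mouse 1. Kcnj10 and Gja1 ran opposite to each other, at -0.91 and at -0.75 without that mouse, and Slc1a3 and Gja1 ran together, at 0.71 and 0.74. Gja1 and Gjb6, the astrocyte connexins, gave 0.52 with vehicle mouse 1 and -0.08 without it. Glul and Aldh1l1 rose from 0.57 to 0.94 when it was left out. These values describe 12 libraries that also differ in depth and length balance. The mean deviation of the 10 members was most like that of Ado (r = 0.91), Peli2 (0.89), 1700088E04Rik (0.88), Yy1 (0.88) and Ubp1 (0.88) among 13518 genes under an Ensembl identifier. Without vehicle mouse 1 the order changed, to Abhd5 (0.93), Camk2b (0.91), Capn5 (0.91), Rtp3 (0.90) and Ado (0.89), so that Ado alone was among the leading 5 both times. Both rankings share the other mice, and how high r would run by chance over so many genes was not tested.

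**Figure D5:**
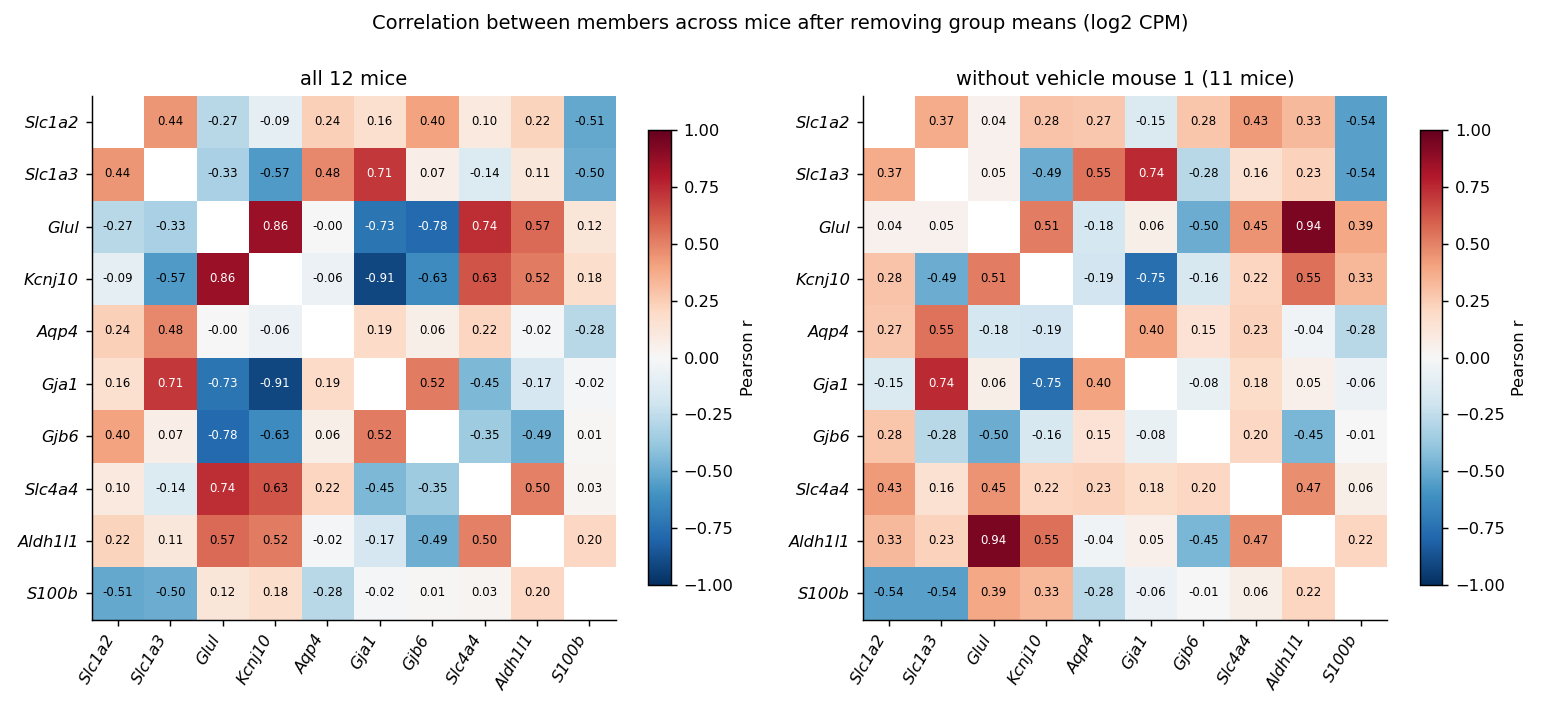
Pearson's r between each pair of the 10 members across mice, from log2 CPM with group means removed, over all 12 mice (left) and over the 11 mice without vehicle mouse 1 (right); red is positive, blue negative, and each cell prints its r. The pair of Kcnj10 and Gja1 is negative in both panels (-0.91 and -0.75), whereas Gja1 and Gjb6 go from 0.52 to -0.08.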

How the data were processed

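Total RNA from brain was reverse transcribed, amplified by PCR and sequenced as full-length cDNA on nanopores. According to the study's methods, reads were filtered on quality and length, full-length reads were mapped with minimap2 and collapsed to consensus isoforms with pinfish. The deposited table holds, per gene and sample, counts and CPM that the authors made. The submitters' processing notes name GRCm38 and DESeq 1.10.1, and how reads were counted per gene, and whether strand was used, is not given in the sources used here. The deposited CPM are counts divided by the column total, checked against the counts in all 12 samples. 4 lines of the table held no gene and were left out. PCR reads carried no molecular identifiers, so that floors cover counting error only.

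Counts were tested with edgeR 4.0.16 in R 4.3.3 (TMM factors, quasi-likelihood test), 1 fit for each pair of groups with 8 mice, over genes with at least 1 CPM in at least 4 mice, and p-values were adjusted by Benjamini-Hochberg over all genes tested. The script was tested on simulated data. Standard errors come from the F statistic, and 95% intervals from its t distribution. A gene was called at an adjusted p under 0.05. The alternatives were RLE factors, library totals, DESeq2 1.42.0, limma 3.58.1 (voom with quality weights), no filter or 5 CPM, all 12 mice in 1 fit, a replicate block, Ensembl genes only, and each mouse left out. Within-group correlations used log2 CPM with a prior count of 2. Positions are from GENCODE on GRCm38 and promoters from RefSeq on GRCm38.p6.

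All 10 members are named. From every other list the text names up to 3 genes per direction and comparison with the largest fold among those called, and the 5 genes most like the members. Gfap, Timp1, Lcn2 and Ttr are named besides for their known roles or their values. Some called genes of the glutamate and endfoot lists are not reported here. Markers of oligodendrocyte precursors, mural cells, ependyma and choroid plexus, blood and brain regions were measured as well and are given in the closing section. Members and lists were chosen with earlier results of these data known.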

Additional observations from a re-analysis of the deposited data

Results flagged for a closer look

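Of 30 sets of 4 mice (each of the 10 members in each group), 2 held a mouse far from the other 3 by Dixon's ratio at its 95% critical value, and chance alone flags about 1 set in 20. Both sets were of Glul, the glutamine synthetase gene. Among the vehicle-treated mice the highest, mouse 1, measured 2525 CPM, with the other 3 between 1162 and 1304 CPM. Among the lactate-treated mice the lowest, mouse 1, measured 1237 CPM, with the other 3 between 1254 and 1257 CPM, so that the gap was small in size and stood out only because those 3 were so close. No explanation was tested for either.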

How the results depend on the processing

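Of 510 values of single members under the alternatives, 474 kept their direction and side of the threshold, 33 changed sign, all of them without a call, and 3 moved to the called side, all of them Gjb6 in vehicle-treated against sham mice. The call of Gjb6 with lactate against sham was kept under all 17 alternatives (log2 fold change 0.83 to 1.05, adjusted p 5.56e-06 to 0.0148). The count of members called with vehicle against sham was 0 by edgeR and 1 (Gjb6) under DESeq2 (0.70, adjusted p = 0.0355), under limma voom (0.78, adjusted p = 0.0271) and at the study's limits, and leaving out each mouse gave 0 to 1, with 1 only without vehicle mouse 1. Deviations of like-numbered mice correlated at -0.15 to 0.16. Unlike-numbered mice were not compared, so these values cannot decide whether replicate numbers pair mice. With a replicate block the counts of members called stayed at 0, 1 and 0, while the median over members with lactate against sham was -0.01. The median with lactate against vehicle ran from -0.14 to 0.027 when each mouse was left out, with 0.027 without vehicle mouse 1. The changes of sign were as follows. With vehicle against sham, Slc1a3 gave 0.0011 with RLE factors, 0.00067 with DESeq2, 0.017 at 5 CPM, 0.0089 in the fit of all 12 mice and 0.020 with Ensembl genes only, and Gja1 gave 0.013 with voom. With lactate against sham, S100b gave -0.021 with library totals and -0.045 without a filter. With lactate against vehicle, voom gave -0.023 for Slc1a2 and 0.15 for Kcnj10. Leaving out each mouse gave, with vehicle against sham, -0.033 to 0.16 for Slc1a2, -0.056 to 0.036 for Slc1a3, -0.73 to 0.18 for Kcnj10, -0.030 to 0.20 for Aqp4, -0.19 to 0.11 for Gja1 and -0.22 to 0.073 for S100b. It gave, with lactate against sham, -0.18 to 0.042 for Aldh1l1 and -0.093 to 0.20 for S100b. It gave, with lactate against vehicle, -0.028 to 0.10 for Slc1a2, -0.44 to 0.036 for Glul, -0.54 to 0.38 for Kcnj10, -0.20 to 0.10 for Gja1 and -0.16 to 0.018 for Slc4a4. The cause was not tested, except that alternatives with fewer mice or genes test less. Calls over all genes also moved: with vehicle against sham edgeR called 250 genes, DESeq2 called 399 higher and 77 lower, and leaving out vehicle mouse 1 gave 300 higher and 69 lower. With lactate against vehicle edgeR called 1 gene, and DESeq2 called 53 higher and 9 lower. Depth limits Kcnj10 most among the members, with 27 counts in its lowest mouse.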

Other observations

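Marker lists of brain regions and of further cell types were summed in each library, as a description of what the tissue held. The summed level of 9 striatum markers was 477 to 782 CPM in sham, 318 to 967 with vehicle and 813 to 944 with lactate (lowest to highest mouse), and 1 of the 9, Ppp1r1b, the DARPP-32 gene of striatal neurons, rose with lactate against sham by a log2 fold change of 0.67 (SE 0.13, adjusted p = 0.00564 by edgeR). It lost that call in the fit of all 12 mice (adjusted p = 0.191). Markers of cortex and hippocampus summed to 117 to 157, 99.8 to 194 and 119 to 157 CPM, and those of thalamus to 41.1 to 48.8, 36.2 to 56.1 and 43.1 to 50.4 CPM, so the vehicle group was the most spread in each of these regions. Markers of cerebellum and hindbrain stayed at 5.81 to 11.5 CPM in all 12 mice. How the share of each region bears on the astrocyte genes was not tested.

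Among blood markers, S100a8 and S100a9, calcium-binding proteins of neutrophils, rose in both ischemic groups, S100a8 by log2 fold changes of 4.40 with vehicle (SE 0.65) and 3.83 with lactate (SE 0.36). The hemoglobin genes Hbb-bt (-0.61, SE 0.13), Hba-a2 (-0.45, SE 0.11) and Hba-a1 (-0.43, SE 0.11) fell with lactate against sham. Their adjusted p was 0.0109, 0.0209 and 0.0267 by edgeR. The calls were kept under 17, 13 and 9 of 17 alternatives. Mural cell markers summed to 67.8 to 86.2 CPM in sham, 51.04 to 77.7 with vehicle and 57.3 to 64.2 with lactate, and markers of oligodendrocyte precursors to 27.6 to 39.4, 23.6 to 37.1 and 28.7 to 38.5 CPM, and in neither list was a gene called by edgeR in any comparison, with at most 1 higher and 1 lower at an unadjusted p under 0.05. DESeq2 called 1 precursor marker lower with vehicle, and limma voom 1 higher with lactate. Ependyma and choroid plexus markers summed to 15.2 to 29.8 CPM in sham, 26.8 to 1864 with vehicle and 28.3 to 41.5 with lactate, the top value being vehicle mouse 2 with its 1817 CPM of Ttr.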
